A study of Mus musculus with 3 samples.

Results

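The mRNA levels of the Hox genes of the *Hoxa*, *Hoxb*, *Hoxc* and *Hoxd* clusters were compared over Colon26, a mouse colon cancer line, and the sublines LuM1 and NM11 derived from it. A gene was a member when its symbol was one of these cluster names followed by a number, and a probe belonged to it when the RefSeq accession of the probe mapped to that symbol. All 39 Hox genes of the gene table had a probe, 11 in *Hoxa*, 10 in *Hoxb*, 9 in *Hoxc* and 9 in *Hoxd*, among 22911 named genes in all. The 39 genes were read by 46 probes, and 7 genes had more than 1 probe. Colon26 is a murine colon adenocarcinoma line and the parent of the others, LuM1 is labelled as a high-metastatic and NM11 as a low-metastatic subline. All are BALB/c cells of female origin that were kept in RPMI1640 with antibiotics, an antifungal (amphotericin B) and 10% FBS. RNA was taken after 3 days of culture, and Cy3-labelled cRNA made from 0.1 µg of it was hybridized to 1 array per line, all 3 on 1 slide. The labels name no treatment. With 1 culture and 1 array per line, line, culture and array cannot be told apart, no test was possible, and each error after ± is the scanner software's own, a technical error only.

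Hox genes encode homeodomain transcription factors that give cells their position along the body axis. In each cluster the genes lie in the order of their numbers, with low numbers used toward the head and high numbers toward the tail, and genes of the same number in different clusters are paralogs. Polycomb complexes hold the clusters silent, trithorax and MLL complexes keep them active, retinoic acid turns on the low-numbered end, and the proteins bind DNA with TALE partners of the Pbx and Meis families. The hindgut and the colon epithelium are known to use Hox genes of their own, together with the related *Cdx* genes.

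For 22 of the 39 genes RefSeq gave a promoter window, and the 250 bases before the start are described here (build GRCm38.p6, 24 windows, since *Hoxa10* and *Hoxd11* had more than 1). Those of 4 genes are printed because they overlap no gene of the table and span the patterns below. *Hoxa2* and *Hoxa7* were at least 2-fold lower in both sublines than in Colon26 cells, *Hoxa13* was well above background in LuM1 cells alone, and *Hoxd13* was dim in all lines. Of these 2-fold calls, only that of *Hoxa7* in NM11 cells held under each other way of processing. Capitals mark CG dinucleotides, the bases on which mammalian DNA is methylated.
Hoxa2, chr6:52164832-52165081, minus strand: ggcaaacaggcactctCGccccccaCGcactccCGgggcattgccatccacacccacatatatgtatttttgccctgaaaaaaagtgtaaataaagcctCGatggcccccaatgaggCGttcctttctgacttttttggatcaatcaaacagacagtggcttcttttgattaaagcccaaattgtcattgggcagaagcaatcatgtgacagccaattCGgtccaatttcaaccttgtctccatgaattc
Hoxa7, chr6:52218574-52218823, minus strand: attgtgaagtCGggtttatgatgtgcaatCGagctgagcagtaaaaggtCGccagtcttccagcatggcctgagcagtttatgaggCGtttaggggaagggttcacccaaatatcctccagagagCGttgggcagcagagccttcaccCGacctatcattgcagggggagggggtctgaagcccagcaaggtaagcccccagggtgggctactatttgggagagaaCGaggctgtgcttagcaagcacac
Hoxa13, chr6:52260881-52261130, minus strand: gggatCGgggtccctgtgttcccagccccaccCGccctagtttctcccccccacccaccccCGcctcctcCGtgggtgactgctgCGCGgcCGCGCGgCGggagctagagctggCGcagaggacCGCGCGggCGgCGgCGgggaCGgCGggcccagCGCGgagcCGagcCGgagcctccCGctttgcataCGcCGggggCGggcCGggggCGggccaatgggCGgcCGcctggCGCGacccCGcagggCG
Hoxd13, chr2:74667975-74668224, plus strand: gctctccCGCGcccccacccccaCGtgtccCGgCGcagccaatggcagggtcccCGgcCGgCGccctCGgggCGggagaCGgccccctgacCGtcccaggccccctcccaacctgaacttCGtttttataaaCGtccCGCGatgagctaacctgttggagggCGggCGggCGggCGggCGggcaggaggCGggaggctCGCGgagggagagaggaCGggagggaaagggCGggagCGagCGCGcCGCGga

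The *Hoxa13* window held 35 CG dinucleotides and that of *Hoxd13* held 31, whereas those of *Hoxa2* and *Hoxa7* held 6 and 7. Over the Hox windows the median was 12.5, against 6 over all 32851 windows of the same length, and the median was 12.5 both for the 16 windows of genes well above background in at least 1 line and for the 8 of genes dim in all lines. The CCAAT box (CCAAT, either strand) was in 58.3% of the Hox windows and in 33.8% of all windows. The TATA box TATAAA was in 16.7% and 12.4%, and the homeodomain core TAATTA in 8.33% and 4.84%. The Pbx-Hox motif TGATTGAT was in 8.33% of the Hox windows, *Hoxa2* and 1 of *Hoxd11*, and in 0.67% of all windows. These matches are descriptions of the letters only.

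The clusters also hold the genes of 6 miRNAs, of which those of the miR-10 and miR-196 families are known for Hox mRNAs among their targets. No probe named for them was read here, so they have no level. Their 5p forms are shown, with the seed (bases 2 to 8) in capitals, because each family keeps 1 seed over different clusters.
miR-10a-5p (*Hoxb* cluster): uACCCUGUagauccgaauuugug
miR-10b-5p (*Hoxd* cluster): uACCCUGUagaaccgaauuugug
miR-196a-5p (*Hoxb* and *Hoxc* clusters): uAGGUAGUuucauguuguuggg
miR-196b-5p (*Hoxa* cluster): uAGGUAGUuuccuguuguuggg

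A probe was detected when the scanner software called it well above background. Signals were scaled so that the 75th percentile of each array became 585.1 (581.1 for Colon26, 625.1 for LuM1 and 551.5 for NM11 before). A probe that was dim in 1 line enters a ratio only as a bound. The bound sets the other line against the dim signal or, where that is higher, against the dimmest detected signal of the array (26.4, 20.1 and 19.6 for Colon26, LuM1 and NM11). Spots called on 1 array alone were not spread evenly. A spot was taken to lie in a lit area when more than 3 times the array's share of spots called there alone (1.89%, 3.49% and 2.14%) was reached among its neighbours within 5 rows and columns.

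Around the same number of Hox genes were detected in each line. They were 23 of 39 (59%) in Colon26 cells, 21 (53.8%) in LuM1 cells and 21 (53.8%) in NM11 cells, near the shares of all named genes, which were 56.9%, 59.9% and 59.1%. Without the spots in lit areas the counts were 21, 19 and 20. Across the lines 20 genes were detected in all 3, 4 in some and 15 in none. The number of the gene, more than the line, went with detection. Of 15 genes numbered 4 to 8, 14 were detected in Colon26, 13 in LuM1 and 14 in NM11 cells, and *Hoxa4* was the 1 gene dim in all lines. Of 16 genes numbered 9 to 13, 5, 4 and 3 were detected. Of 8 genes numbered 1 to 3, 4 were detected in every line.

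**Figure D1:**
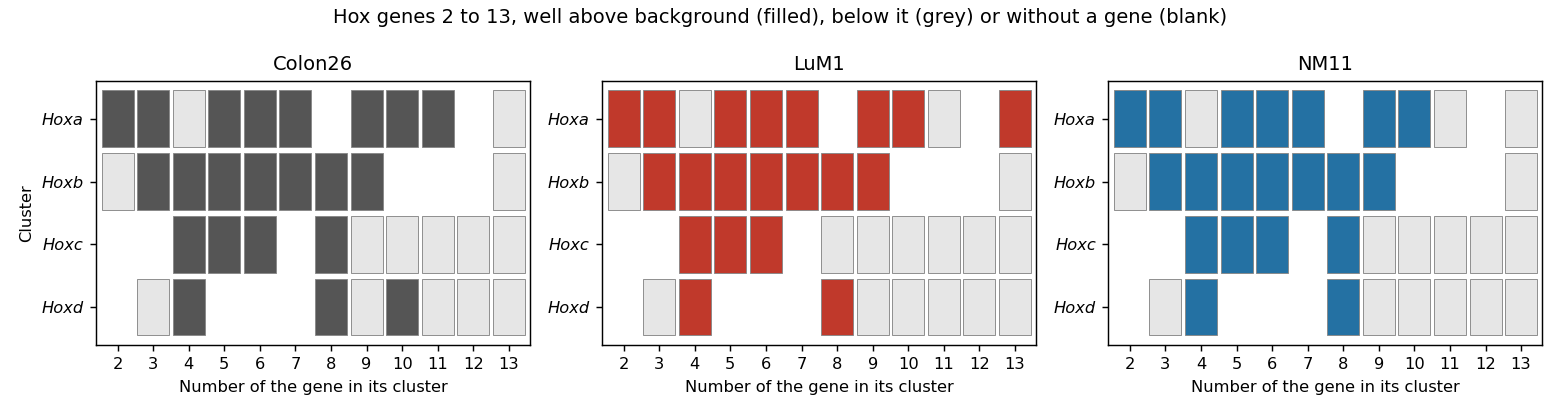
Hox genes numbered 2 to 13 by cluster (rows) and number (columns) on the array of each line, filled where the gene's probe was well above background, grey where it was not and blank where the cluster has no such gene. The filled block runs over numbers 4 to 8, and to the right of it, from number 11 on, the filled cells are *Hoxa11* in Colon26 cells and *Hoxa13* in LuM1 cells.

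By cluster, 9 of 11 *Hoxa* genes were detected in Colon26 cells, 9 in LuM1 and 8 in NM11 cells, and 7 of 10 *Hoxb* genes in each line. *Hoxc* had 4, 3 and 4 of 9, and *Hoxd* had 3, 2 and 2 of 9. The genes dim in all lines were *Hoxa4*, *Hoxb1*, *Hoxb2*, *Hoxb13*, *Hoxc9*, *Hoxc10*, *Hoxc11*, *Hoxc12*, *Hoxc13*, *Hoxd1*, *Hoxd3*, *Hoxd9*, *Hoxd11*, *Hoxd12* and *Hoxd13*. *Hoxb13* and the *Hoxd* genes of the highest numbers are the members best known from the caudal end, the hindgut and genital tract. A dim probe gives no level, so these mRNAs were not detectable on these arrays, which does not show that they were absent.

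In LuM1 cells 3 of the 24 Hox genes with a level in either line were at least 2-fold higher than in Colon26 cells (12.5%, against 12.9% of all named genes) and 5 were at least 2-fold lower (20.8%, against 11.7%). In NM11 cells 2 of 23 were at least 2-fold higher than in Colon26 cells (8.7%, against 8.17%) and 7 were lower (30.4%, against 7.74%). Between the sublines, LuM1 cells were higher by at least 2-fold for 3 of 22 (13.6%, against 11.1%) and lower for 2 (9.09%, against 8.5%). Both comparisons with Colon26 cells share 1 Colon26 array. The shares of higher genes were near those of all genes. The shares of genes lower than in Colon26 cells were above those of all genes in both sublines, more so in NM11 cells. With so few genes and 1 array per line this is a description. After normexp background correction, 1 Hox gene was at least 2-fold lower in LuM1 and 2 in NM11 than in Colon26 cells. In the authors' processed values, 8 Hox genes were higher and 1 was lower in LuM1 than in Colon26 cells, and when scaled to *Hprt* 16 were higher and 1 was lower in LuM1 than in NM11 cells.

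Over the genes measured in both lines, the log2 ratio of LuM1 over Colon26 had a median of 0.42 for 20 Hox genes and -0.13 for 12394 named genes. That of NM11 over Colon26 was -0.41 for 21 Hox genes and -0.02 for 12469 named genes. That of LuM1 over NM11 was 0.60 for 20 Hox genes and -0.11 for 12848 named genes. The Hox median was thus above that of all named genes for LuM1 over Colon26 and below it for NM11 over Colon26. With bounds counted at their value, the Hox medians were 0.30, -0.44 and 0.58, and with dim signals taken at face value the first became -0.36. The clusters differed. For *Hoxa*, *Hoxb*, *Hoxc* and *Hoxd* in turn, the measured medians of LuM1 over Colon26 were 0.153, 0.711, -0.627 and -0.188. Those of NM11 over Colon26 were -0.885, -0.008, -0.026 and -0.563. The scaling moved the median of all genes by up to 0.45 for LuM1 over Colon26 (the authors' processed values), by -0.49 for NM11 over Colon26 and 0.59 for LuM1 over NM11 (both scaled to *Hprt*).

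**Figure D2:**
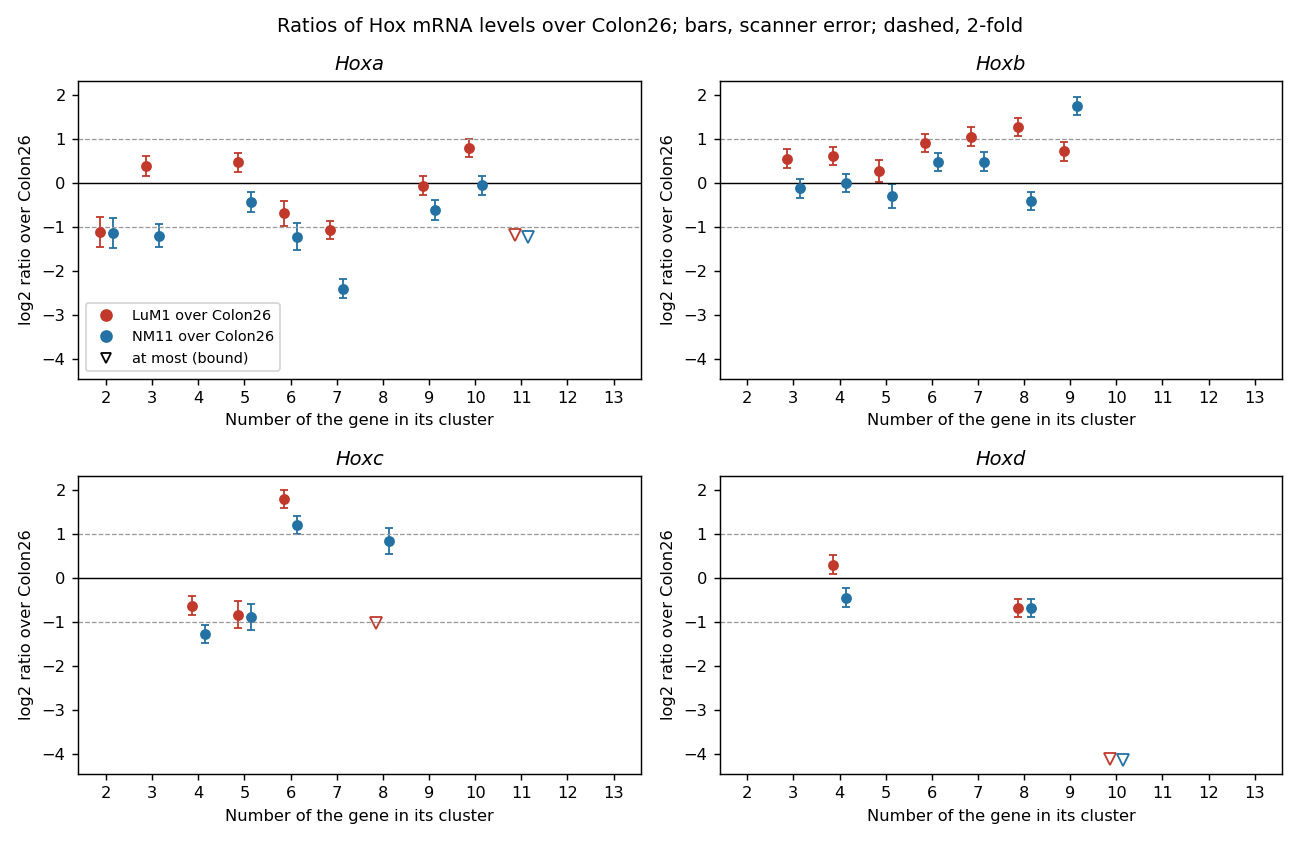
The log2 ratio of each Hox gene numbered 2 to 13 in LuM1 (red) and NM11 (blue) over Colon26 cells, by cluster and number, with the scanner error as bars, open triangles for bounds that the true ratio lies at or under, and dashed lines at 2-fold. In *Hoxb* the 7 red points lie above 0, and in *Hoxa* the measured blue points lie below 0, down to -2.41 at *Hoxa7*.

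The *Hoxa* genes were lower in NM11 cells than in Colon26 cells. The 8 genes measured in both lines had log2 ratios from -2.41 to -0.06, with a median of -0.88, and 6 of them (of all named genes measured in both lines, 34.9%) were lower by more than the scanner error. *Hoxa10* had the ratio nearest to 0, and its sign turned to 0.04 when its probes were averaged. In LuM1 cells the same 8 genes were mixed, 4 higher and 4 lower than in Colon26 cells, with a median of 0.15.

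*Hoxa7*, a gene of the trunk region, had scaled signals of 541.8 ± 54.5 in Colon26, 257.1 ± 26.1 in LuM1 and 102.2 ± 11 in NM11 cells. The lines were apart by more than the scanner error in each pair. The level was 5.30-fold lower in NM11 cells and 2.11-fold lower in LuM1 cells than in Colon26 cells, and 2.52-fold higher in LuM1 than in NM11 cells. For *Hoxa7* the log2 ratio of LuM1 over Colon26 was -0.63 in the authors' processed values, under 2-fold. After normexp background correction that of LuM1 over NM11 was 0.91, also under 2-fold. Its neighbour *Hoxa6* read 65.4 ± 8.49, 40.4 ± 5.78 and 28.0 ± 4.86, in the same order. The level in NM11 cells was 2.34-fold lower than that in Colon26 cells.

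*Hoxa2*, which patterns the hindbrain and the branchial arches, read 58.8 ± 8.21 in Colon26, 26.9 ± 5.20 in LuM1 and 26.6 ± 4.99 in NM11 cells. It was 2.18-fold lower in LuM1 and 2.21-fold lower in NM11 cells, and the sublines did not differ beyond the scanner error. Neither of these 2-fold calls held under each alternative. The log2 ratio of LuM1 over Colon26 was -0.68 in the authors' processed values. That of NM11 over Colon26 was -0.52 after normexp background correction. *Hoxa3*, known for the thymus and parathyroid, read 110.7 ± 12.7, 143.3 ± 15.2 and 48.0 ± 6.67. It was low in NM11 cells alone, 2.30-fold lower than in Colon26 cells and 2.98-fold lower than in LuM1 cells. The other probe of *Hoxa3* was dim in all lines.

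*Hoxa5*, *Hoxa9* and *Hoxa10* had a level in all lines and lay within 2-fold. *Hoxa5* read 105.9 ± 11.9 in Colon26, 145.8 ± 15.2 in LuM1 and 77.9 ± 8.73 in NM11 cells, and *Hoxa10*, known from the uterus and blood, read 395.1 ± 39.9, 678.3 ± 68.0 and 378.5 ± 38.1. Both were highest in LuM1 cells. *Hoxa9*, known for its part in leukemia, read 123.4 ± 13.4, 117.8 ± 12.5 and 80.1 ± 8.91. Its other probe read 133.8 ± 14.6, 63.1 ± 7.76 and 56.9 ± 7.10, so the ratio of LuM1 over Colon26 was 0.955 by 1 probe and 0.472 by the other. In LuM1 the spots of *Hoxa5* and *Hoxa9* lay in lit areas, with 12.8% and 17.4% of neighbours lit on that array alone.

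Toward the high-numbered end of *Hoxa* the signals were near background. *Hoxa11*, a gene of the forelimb and the uterus, read 45.7 ± 7.55 in Colon26 cells and was dim in LuM1 and NM11 cells, so its level was at least 2.27-fold and at least 2.34-fold lower there. Neither call of 2-fold held under each alternative. With the bound at the 5th percentile of detected signals the log2 ratio of LuM1 over Colon26 was at most -0.63, and after normexp background correction that of NM11 over Colon26 was at most -0.55. Its Colon26 spot had 0.917% of neighbours lit on that array alone, under the array's share. *Hoxa13*, a gene of the distal limb and hindgut, read 25.2 ± 4.97 in LuM1 cells and was dim elsewhere. It had no ratio over Colon26 cells, and over NM11 cells its level was higher by at least 1.29-fold.

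**Figure D3:**
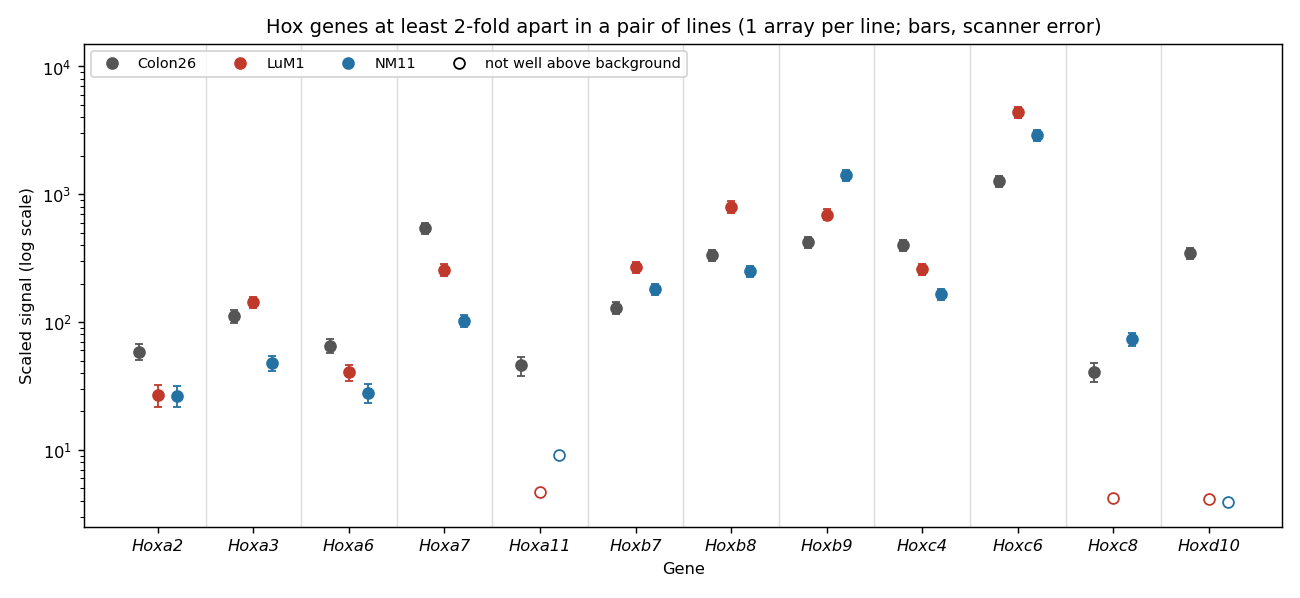
Scaled signal on a log axis of the 12 Hox genes at least 2-fold apart in a pair of lines, 1 point per line with the scanner error as a bar and open points where the probe was not well above background. *Hoxa7* steps down from 541.8 in Colon26 to 102.2 in NM11 cells, *Hoxb8* stands highest in LuM1 cells and *Hoxb9* in NM11 cells.

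All 7 detected *Hoxb* genes were higher in LuM1 cells than in Colon26 cells, with log2 ratios from 0.27 to 1.26, a median of 0.71, and each beyond the scanner error, as were 30.3% of all named genes measured in both lines. *Hoxb5* lay just past its scanner error (0.27 with an error of 0.26), and within it under the other ways of taking the percentile. The direction of all 7 genes held under each alternative. The dimmer probe of *Hoxb3* went the other way, at -0.14. In NM11 cells 3 of the 7 were higher and 4 were lower than in Colon26 cells, from -0.41 to 1.74. *Hoxb6* and *Hoxb7* lay on the higher side there, except that scaling to *Hprt* turned both, to -0.01 and -0.01.

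*Hoxb8*, which is active in the posterior trunk and in myeloid cells, read 334.2 ± 33.9 in Colon26, 799.6 ± 80.1 in LuM1 and 251.4 ± 25.5 in NM11 cells. LuM1 cells stood apart from both other lines. The level in LuM1 cells was 2.39-fold that in Colon26 cells and 3.18-fold that in NM11 cells. A second probe read 109.3 ± 12.5, 229.5 ± 23.4 and 81.1 ± 9.19, with ratios of 2.10-fold and 2.83-fold.

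*Hoxb9*, known for the thorax and the mammary gland, read 423.9 ± 42.8 in Colon26, 693.9 ± 69.5 in LuM1 and 1414 ± 141 in NM11 cells. NM11 cells were highest, 3.34-fold above Colon26 cells and 2.04-fold above LuM1 cells. Its second, dimmer probe was below the call in Colon26 cells, and NM11 was 2.09-fold above LuM1 by it. Scaled to *Hprt*, the log2 ratio of LuM1 over NM11 for the first probe was -0.44, under 2-fold.

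*Hoxb7*, studied in many carcinomas, read 129.8 ± 14.3 in Colon26, 268.6 ± 27.3 in LuM1 and 181.1 ± 18.6 in NM11 cells, and LuM1 cells lay 2.07-fold above Colon26 cells. After normexp background correction that log2 ratio was 0.62, under 2-fold. *Hoxb6* read 250.7 ± 25.7, 468.2 ± 47.0 and 348.9 ± 35.1 in the same order of lines. Both were lowest in Colon26 and highest in LuM1 cells. *Hoxb3* read 134.8 ± 14.6, 197.0 ± 20.1 and 123.6 ± 13. *Hoxb4*, used to expand blood stem cells, read 335.3 ± 34.0, 508.5 ± 51.1 and 333.4 ± 33.6. *Hoxb5* read 66.6 ± 9.0, 80.1 ± 9.33 and 54.1 ± 6.96. For *Hoxb3* and *Hoxb4* the signals of Colon26 and NM11 cells did not differ beyond the scanner error.

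In *Hoxc* neighbouring genes went different ways. *Hoxc6*, a trunk gene, read 1261 ± 126 in Colon26, 4394 ± 439 in LuM1 and 2898 ± 290 in NM11 cells. It was 3.48-fold higher in LuM1 and 2.30-fold higher in NM11 cells than in Colon26 cells, and was higher in LuM1 than in NM11 cells by 1.52-fold. Its Colon26 spot lay in a lit area, with 7.02% of neighbours lit on that array alone, and its LuM1 spot had 9.65%, under the limit there. Without that spot *Hoxc6* had no ratio over Colon26, and the count of Hox genes higher by 2-fold or more than in Colon26 cells became 2 for LuM1 and 1 for NM11. *Hoxc4* read 400.3 ± 40.5, 259.2 ± 26.3 and 165.7 ± 17.1. It was 2.42-fold lower in NM11 than in Colon26 cells. *Hoxc5* read 65.8 ± 8.96, 37.0 ± 6.04 and 35.5 ± 5.70, lower in both sublines and within 2-fold. Its NM11 spot lay in a lit area, with 7.23% of neighbours lit on that array alone.

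*Hoxc8*, which acts at the level of the rib cage, read 41.0 ± 6.83 in Colon26 cells, was dim in LuM1 cells and read 73.2 ± 8.33 in NM11 cells. By the bounds, LuM1 cells lay at least 2.04-fold under Colon26 cells and at least 3.64-fold under NM11 cells. With the bound set at the 5th percentile of detected signals, the log2 ratio of LuM1 over Colon26 was at most -0.48. The gene rests on 1 probe.

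Of the *Hoxd* genes, *Hoxd4* and *Hoxd8* had a level in all lines. *Hoxd8* read 1155 ± 116 in Colon26, 720.5 ± 72.2 in LuM1 and 722.0 ± 72.3 in NM11 cells. Both sublines were lower than Colon26 cells by 1.6-fold and did not differ from each other beyond the scanner error. *Hoxd4* read 200.4 ± 20.8, 247.6 ± 25.1 and 146.8 ± 15.3.

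*Hoxd10*, a gene of the lumbar spinal cord and hindlimb, read 346.1 ± 35.0 in Colon26 cells and was dim in both sublines. By its bounds the level was at least 17.2-fold lower in LuM1 and at least 17.7-fold lower in NM11 cells, the largest bounds among the Hox genes. After normexp background correction the log2 ratios were at most -2.56 and -2.25, against -4.10 and -4.14 here. Its Colon26 spot lay in a lit area, where 21 of 115 neighbours (18.3%) were lit on the Colon26 array alone. The gene has 1 probe and 1 spot, so it has no second reading on that array. The part of the lit area in the *Hoxd10* signal was not tested. Without spots in lit areas, 4 Hox genes were at least 2-fold lower in LuM1 and 6 in NM11 than in Colon26 cells.

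**Figure D4:**
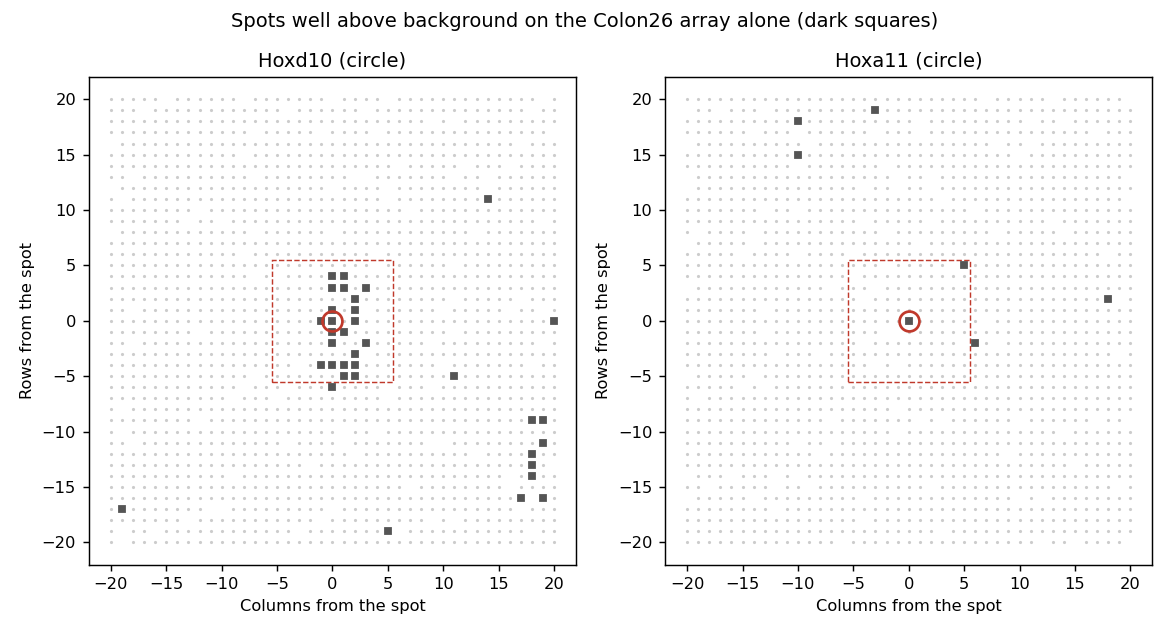
Spots called well above background on the Colon26 array alone (dark squares) around the spots of *Hoxd10* and *Hoxa11* (circles), by rows and columns from the spot, with grey points for other probes and a dashed frame for the neighbours counted. The *Hoxd10* spot lies inside a cluster of such spots (18.3% of neighbours), and that of *Hoxa11* does not (0.917%).

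Genes inside or beside the clusters were also read, each for its own RNA level. Of 32 non-coding genes inside, 8 had a probe and 5 were detected. *Mira*, a non-coding RNA of the *Hoxa* cluster, read 360.0 in Colon26, 180.6 in LuM1 and 94.0 in NM11 cells. That is the order of *Hoxa6* and *Hoxa7*, with a level lower by 1.99-fold in LuM1 and 3.83-fold lower in NM11 than in Colon26 cells. *Hoxaas3* (480.9, 290.2 and 413.3), *Hoxb5os* (1065, 997.3 and 1210) and *Haglr* (111.5, 78.3 and 127.9) lay within 2-fold. *Hoxd3os1* read 64.3, 82.4 and 33.8, with 16.4% of the neighbours of its LuM1 spot lit on that array alone.

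Of 16 protein-coding genes beside the clusters, 15 had a probe and 14 were detected. *Hibadh*, *Snx10*, *Snx11*, *Atp5g2*, *Smug1*, *Cbx5*, *Lnpk*, *Evx2* and *Mtx2* lay within 2-fold of Colon26 cells in both sublines. *Skap2*, an adaptor gene beside *Hoxa*, was 2.12-fold higher in LuM1 and 1.54-fold higher in NM11 cells, and *Calcoco1* beside *Hoxc* was 4.74-fold higher in LuM1 cells, with 14.2% of its LuM1 neighbours lit there alone. *Calcoco2* was detected in LuM1 cells alone (42.4). *Ttll6* beside *Hoxb* read 324.1 in Colon26 cells and was dim in both sublines, with 5.31% of the neighbours of its Colon26 spot lit there alone, and *Skap1* read 36.8 and was dim in both.

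The partners and regulators of Hox genes were detected in large part. Of all 22911 named genes, 12245 were detected in every line. Of 9 TALE cofactors, 6 were detected in every line, and all of these lay within 2-fold of Colon26 cells, with median log2 ratios of -0.17 in LuM1 and -0.45 in NM11 cells. *Meis3* was 2.31-fold higher in LuM1 than in NM11 cells. All 18 genes of Polycomb complex PRC1 and all 11 of PRC2 on the arrays were detected in every line. Against Colon26 cells 1 of these was at least 2-fold apart. *Jarid2*, a PRC2 partner, read 42.7 in Colon26, 160.5 in LuM1 and 68.5 in NM11 cells, and LuM1 cells lay 3.76-fold above Colon26 cells and 2.34-fold above NM11 cells. *Cbx7* and *Phc1*, both of PRC1, were 2.25-fold and 2.13-fold higher in LuM1 than in NM11 cells.

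All 14 trithorax and MLL genes with a probe were detected, and in NM11 cells all lay within 2-fold of Colon26 cells. In LuM1 cells *Dot1l*, the H3K79 methyltransferase, was 2.96-fold lower (1294 in Colon26 and 437.6 in LuM1 cells), and *Mllt3*, which recruits it, was 3.61-fold lower (2919 and 808.5). *Mllt3* had 6.6% of the neighbours of its Colon26 spot lit there alone. *Kmt2d*, a histone H3 methyltransferase, was 2.24-fold higher (186.7 and 418.8). Of 8 ParaHox and *Evx* genes 3 were detected, and *Cdx2*, a master gene of the intestine, read 443.0 in Colon26, 231.7 in LuM1 and 167.2 in NM11 cells, 2.65-fold lower in NM11 than in Colon26 cells.

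The retinoic acid pathway held the widest differences among these lists. Of its 16 genes on the arrays, 11 had a level in LuM1 or Colon26 cells and 12 in NM11 or Colon26 cells. Of the 11, 3 were at least 2-fold higher and 2 lower in LuM1 than in Colon26 cells (12.9% and 11.7% of all named genes). Of the 12, 1 was higher and 3 were lower in NM11 than in Colon26 cells (8.17% and 7.74% of all named genes). *Crabp1*, a retinoic acid binding protein, was dim in Colon26 cells and read 14560 in LuM1 and 199700 in NM11 cells, at least 551-fold and at least 7561-fold higher. *Cyp26b1*, which breaks retinoic acid down, read 97.0, 2304 and 75.7, and LuM1 cells lay 23.8-fold above Colon26 cells. *Rarb*, a receptor that retinoic acid induces, read 325.3 in Colon26 cells, was dim in LuM1 and read 60.1 in NM11 cells, at least 16.2-fold and 5.41-fold lower. *Cyp26c1* was detected in Colon26 cells alone (111.2), on a spot with 10.6% of neighbours lit there alone. Their part in the Hox levels was not tested.

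**Figure D5:**
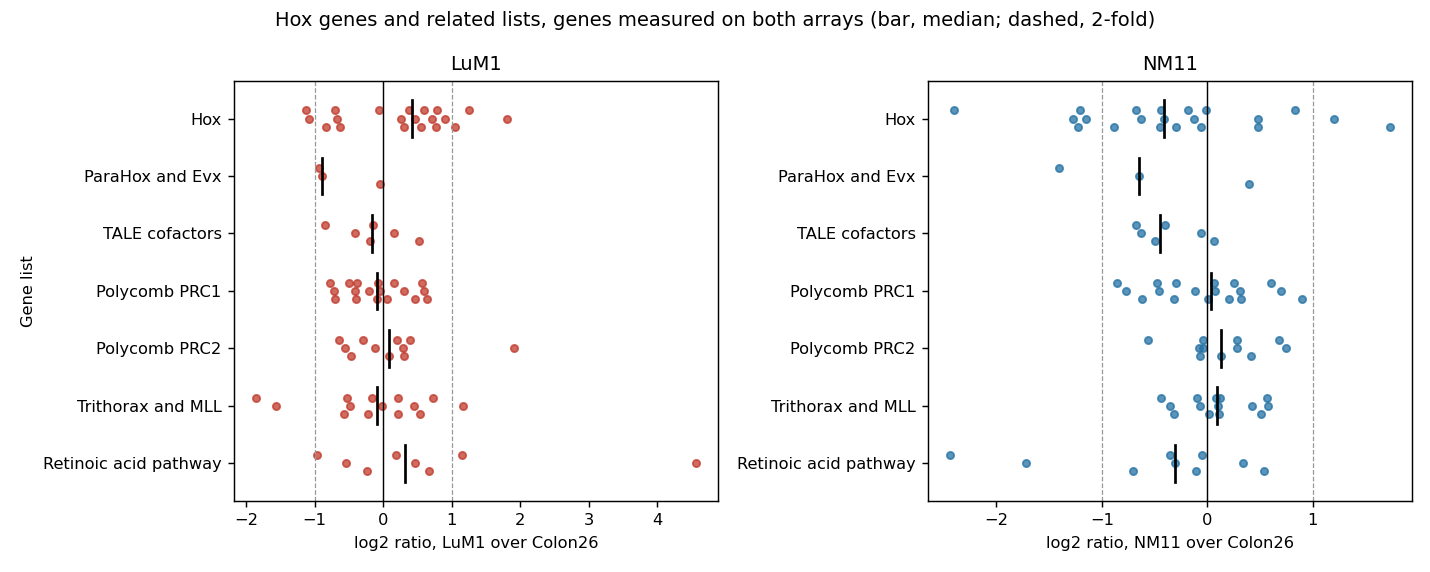
The log2 ratio over Colon26 cells of each gene measured on both arrays, for the Hox genes and 6 related lists (rows), in LuM1 (left) and NM11 (right), with a black bar at the median and dashed lines at 2-fold. The Hox median was 0.42 in LuM1 and -0.41 in NM11 cells, and the Polycomb medians lay between -0.09 and 0.13.

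The labelled cell type was checked against markers. Of 13 epithelial and colon markers, 5 were detected in every line, and these were *Krt8*, *Krt20*, *Cldn7*, *Lgals4* and *Cdx2*. *Cdh1*, *Krt18*, *Krt19*, *Vil1*, *Muc2*, *Cdhr5* and *Cdx1* were dim in all lines, and *Epcam* was detected in LuM1 cells alone (28.0). All 10 mesenchymal markers were detected in every line. E-cadherin (*Cdh1*) and 2 of the 4 keratins tested were not detected, so the labelled colon epithelial type was borne out only in part by these markers, and the lines are called by their names. *Krt20* was 11.9-fold lower in LuM1 and 4.14-fold lower in NM11 than in Colon26 cells, *Krt8* was 3.72-fold higher in LuM1 cells, and *Lgals4* was 2.76-fold and 2.90-fold lower. Of the mesenchymal genes, *Col1a2* was lower in LuM1 than in Colon26 cells by 1207-fold and *Col1a1* by 2.19-fold. *Col3a1* was 3.98-fold higher in LuM1 and 9.04-fold higher in NM11 cells. *Fn1* was 2.4-fold higher in LuM1 cells, with 12% of the neighbours of its Colon26 spot lit there alone. Of 7 leukocyte markers, *Ptprc* and *Adgre1* were dim in all lines, and *Cd68*, which tumor cells can also express, was higher in LuM1 than in Colon26 cells by 30.5-fold.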

How the data were processed

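Total RNA of Colon26, LuM1 and NM11 cells was read on 1-colour Agilent mouse gene expression arrays, 1 per line. The authors deposited the intensity of each spot from Agilent Feature Extraction 11.5.1.1, corrected for background and detrended without scaling between arrays, with flags of 0 or 1 for outliers, saturation and detection. A table of processed intensity values, also deposited, holds the same signals multiplied by a factor of each array (0.654, 0.829 and 0.706). Control and outlier spots (137, 74 and 99) were left out, and no spot was saturated. The spots of a probe were averaged. RefSeq accessions of GRCm38.p6 named 32994 of 56605 probes (58.3%), and a gene with several was read by the probe whose log2 signal had the highest mean. The scanner error was about 10% of the signal for bright spots. The number of arrays limits the precision.

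Arrays were scaled to the 75th percentile over all spots that are no controls. The percentile was taken in 3 ways, over distinct probes first, then over spots that are no outliers, and this choice was made after values of the Hox genes had been seen under the others. Members and gene lists were chosen with earlier results of these data known. The promoter motifs, the windows and miRNAs printed, the genes of the spot maps and the rule for opposite differences were also chosen after values were seen. The Hox genes detected in at least 1 line are named, except 1 that is counted but not reported by itself here, with ratios for those at least 2-fold apart, and at most 4 genes of each other list by the larger ratio. The ratio code was checked on simulated data. No test was run. The alternatives were other scalings (none, detected median, *Hprt*, E1A spike-ins, quantile), the authors' processed values, normexp correction of the median spot intensity (no mean was in the files), other choices of probe, flag, outlier, bound and threshold, and leaving out spots in lit areas. Python 3.11.15 (numpy 2.4.6, pandas 2.3.3, matplotlib 3.10.9) and R 4.3.3 with limma 3.58.1 were used.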

Additional observations from a re-analysis of the deposited data

Results flagged for a closer look

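For 6 Hox genes LuM1 and NM11 cells lay on opposite sides of Colon26 cells, each by more than the scanner error or by a bound. With 1 array per line the difference was not tested. The log2 ratio of LuM1 over NM11 was 1.58 for *Hoxa3*, 0.90 for *Hoxa5*, 0.56 for *Hoxb5*, 1.67 for *Hoxb8* and 0.75 for *Hoxd4*, all of which were higher in LuM1 and lower in NM11 than in Colon26 cells. *Hoxc8* went the other way, dim in LuM1 and higher in NM11 cells, with a log2 ratio of at most -1.86. *Hoxb5* lay just past its scanner error in both comparisons (0.27 with an error of 0.26, and -0.30 with an error of 0.27). Under the other ways of taking the percentile its log2 ratio of LuM1 over Colon26 was 0.24 and 0.25, within the error. The LuM1 spot of *Hoxa5* lay in a lit area, with 12.8% of neighbours lit on that array alone.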

How the results depend on the processing

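All 22 Hox ratios of at least 2-fold kept their sign under each alternative that gave them a ratio. Of these, 8 stayed past 2-fold throughout. Over Colon26 they were *Hoxb8*, *Hoxc6* and *Hoxd10* in LuM1 cells and *Hoxa7*, *Hoxb9* and *Hoxd10* in NM11 cells. For LuM1 over NM11 they were *Hoxb8* and *Hoxc8*. Among the 8 are *Hoxc6* in LuM1 and *Hoxd10* in both sublines over Colon26, which had no ratio without spots in lit areas. Of 46 smaller ratios, 9 changed sign in at least 1 alternative. The other ways of taking the percentile, chosen after seeing the data, moved no count by more than 1.5 times. LuM1 over Colon26, with 3 genes at least 2-fold higher and 5 lower, gave 8 higher and 1 lower in the authors' values, 3 lower without scaling, scaled to *Hprt* or with the bound at the 5th percentile, 1 lower after normexp, 0 and 1 at 4-fold, and 8 and 9 at 1.5-fold. Its median of 0.42 became 0.86 in the authors' values and -0.36 with dim signals at face value. NM11 over Colon26, with 2 higher and 7 lower, gave 1 higher when scaled to *Hprt* or the E1A spike-ins or without lit areas, 2 lower after normexp, and 0 and 2 at 4-fold. Its median of -0.41 became -0.90 scaled to *Hprt*, -0.71 to the spike-ins and -0.19 after normexp. LuM1 over NM11, with 3 higher and 2 lower, gave 6 and 1 without scaling, 16 and 1 scaled to *Hprt*, 8 and 1 to the spike-ins, 11 and 1 in the authors' values, 1 and 1 after normexp, 0 and 0 at 4-fold, 1 lower after quantile normalization and 11 higher at 1.5-fold. Its median of 0.60 became 1.19 scaled to *Hprt*, 0.94 to the spike-ins, 1.02 in the authors' values and 0.16 with dim signals at face value. The scalings multiply all ratios of a pair by 1 factor, except quantile normalization, and normexp with its offset draws ratios of dim genes toward 0. The cause of the other shifts was not tested. No paired analysis was possible because each line has 1 array. Genes near background, such as *Hoxa2*, *Hoxa11*, *Hoxa13* and *Hoxc8*, are limited by signal over background.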
